A study of Mus musculus with 6 samples.

Results

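Fatty acid and triglyceride synthesis was followed through 37 genes of the mouse liver, out of 55401 genes in the expression table. The genes were taken from the table by name, from a list of the pathway's enzymes and regulators, and fall into 8 genes of lipogenesis, 16 of elongation and desaturation and 13 of glycerolipid assembly. Poly(A) RNA was sequenced from 3 livers of Alb-Cre Prdx1 fl/fl mice and 3 livers of Prdx1 fl/fl mice. All 6 mice were male, were 8 weeks old when feeding began and received MCD for 5 weeks. The labels give only that abbreviation, which in liver studies usually means a diet lacking methionine and choline. Both genotypes carry the floxed allele of Prdx1, the gene of the peroxide-reducing enzyme peroxiredoxin 1. The Alb-Cre mice also carry a Cre recombinase driven by the albumin promoter, which is active in hepatocytes. The Prdx1 fl/fl mice carry no Cre, so the transgene and the loss of Prdx1 cannot be told apart, nor can a difference that depends on MCD from one that does not. The comparison asks how the liver transcriptome on this diet differs between the genotypes.

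In the liver, surplus acetyl-CoA is carboxylated to malonyl-CoA by acetyl-CoA carboxylase, and fatty acid synthase builds it into palmitate. Elongases and desaturases of the endoplasmic reticulum then lengthen palmitate and dietary fatty acids and give them double bonds. The products are joined stepwise to glycerol 3-phosphate to form lysophosphatidic acid, phosphatidic acid, diacylglycerol and triglyceride. Insulin, through SREBP-1c (the product of Srebf1), and glucose, through ChREBP (the product of Mlxipl), are textbook inducers of the genes at the head of this route.

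Prdx1 itself had 78.7, 111 and 75.4 CPM in the Alb-Cre Prdx1 fl/fl livers and 644, 570 and 663 CPM in the Prdx1 fl/fl livers. CPM here is the deposited count scaled to a fixed library total after TMM scaling, and libraries are listed by replicate number throughout. The groups did not overlap (log2 fold change -2.82 ± 0.17 SE, adjusted p = 4.4e-05, edgeR quasi-likelihood test). Library totals ran between 58790874 and 78291273 deposited counts in Alb-Cre Prdx1 fl/fl livers and between 63189210 and 67319086 in Prdx1 fl/fl livers. TMM factors were 1.10 to 1.16 in Alb-Cre Prdx1 fl/fl and 0.869 to 0.887 in Prdx1 fl/fl livers, so scaling moves every fold change given here. Over all 18931 genes tested, the middle log2 fold change lay at 0.05 by TMM, at 0.41 by library sizes without factors and at 0.25 on log2(FPKM + 0.5).

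Most of the synthesis genes were lower in the Alb-Cre Prdx1 fl/fl livers. Of the 37 genes 36 passed the filter on low counts, and at an adjusted p under 0.05 25 of these were lower, 1 was higher and 10 were not called. Over all genes tested 37.9% were called, 18.0% lower and 19.9% higher. At least 2-fold lower were 13 of the genes, against 3.83% of all genes tested. The median log2 fold change of the 36 genes was -0.80, which lay 0.85 below the median over all genes, 0.86 below it with library sizes alone and 0.68 below it on FPKM. With library sizes alone 16 were called lower and 4 higher, and on FPKM with limma 15 lower and 4 higher. Over all 18931 genes tested, library sizes alone gave 1249 lower and 6459 higher, and FPKM with limma 1364 lower and 6671 higher. In CPM the libraries of the genotypes did not overlap for 31 of the genes, against 53.0% of all genes tested. In FPKM the genotypes did not overlap for 22 of the 36 tested genes, against 55.3% of all genes tested, a share much closer to the background.

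Hepatocyte markers moved with these genes, while cholangiocyte, stellate cell and macrophage markers went the other way. Hepatocyte markers summed to 66960 to 83116 CPM in Alb-Cre Prdx1 fl/fl livers and 114779 to 135544 CPM in Prdx1 fl/fl livers. Most of these sums was Alb, with a mean of 43329 CPM in Alb-Cre Prdx1 fl/fl and 75934 CPM in Prdx1 fl/fl livers. Of these 14 markers 12 were lower, with a median log2 fold change of -0.75, close to the -0.80 of the synthesis genes. With library sizes alone 8 of the 14 were lower, and the medians were -0.38 for the markers and -0.44 for the synthesis genes. By the main test 18.0% of all genes tested were lower and 19.9% higher. Cholangiocyte markers were higher in 10 of 10, with sums of 1185 to 1375 CPM in Alb-Cre Prdx1 fl/fl and 88.2 to 99.0 CPM in Prdx1 fl/fl livers. Stellate cell and fibroblast markers were higher in 10 of 11 (2462 to 2845 CPM in Alb-Cre Prdx1 fl/fl, 775 to 879 CPM in Prdx1 fl/fl) and macrophage markers in 11 of 11 (2700 to 2797 CPM in Alb-Cre Prdx1 fl/fl, 1088 to 1205 CPM in Prdx1 fl/fl). Of 8 endothelial markers 3 were higher and 1 lower, and of 8 lymphocyte markers 4 were higher and 1 lower. Among 10 adipocyte markers 5 had enough counts to test, Lpl was higher and Pck1 lower, and the defining Adipoq, Lep, Retn and Cfd were at 0 in all 6 libraries. In whole liver, fewer cells of a type and less RNA per cell cannot be told apart, and the part of cell composition in the results below was not tested.

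The regulators of lipogenesis moved apart. Srebf1 (ENSMUSG00000020538, GRCm38 chr11:60199089-60222581, minus strand), whose product SREBP-1 activates lipogenic promoters, had 145, 160 and 184 CPM in Alb-Cre Prdx1 fl/fl livers and 118, 116 and 113 CPM in Prdx1 fl/fl livers. It was the 1 gene of the 37 called higher (log2 fold change 0.50 ± 0.10 SE, adjusted p = 0.00712 by edgeR), and every Alb-Cre library exceeded every library without Cre. The overlapping gene Rai1 holds 10.1% as many counts. Mlxipl (ENSMUSG00000005373, chr5:135089890-135138382, plus strand), the carbohydrate-responsive partner of Mlx, had 210, 241 and 188 CPM in Alb-Cre Prdx1 fl/fl livers and 322, 435 and 266 CPM in Prdx1 fl/fl livers. It was called lower (log2 fold change -0.68 ± 0.18 SE, adjusted p = 0.0211 by edgeR), a call lost with library sizes alone and on FPKM with limma. In FPKM the groups of Mlxipl overlapped, with 45.3 in Alb-Cre Prdx1 fl/fl replicate 2 and 38.8 in Prdx1 fl/fl replicate 3. Within a library the FPKM of Mlxipl was 1.47, 1.53 and 1.04 times that of Srebf1 in Alb-Cre Prdx1 fl/fl livers and 2.79, 3.82 and 2.40 times in Prdx1 fl/fl livers, a ratio that does not depend on scaling between libraries.

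Thrsp (ENSMUSG00000035686, chr7:97412938-97417730, minus strand), the thyroid hormone-inducible Spot 14 protein of lipogenic tissues, had the steepest fold difference of the 36 tested genes. It had 2.33, 4.31 and 4.55 CPM in Alb-Cre Prdx1 fl/fl livers and 48.3, 194 and 34.3 CPM in Prdx1 fl/fl livers (log2 fold change -4.62 ± 0.72 SE, adjusted p = 0.00199 by edgeR). The Prdx1 fl/fl libraries differed widely among themselves, and without Prdx1 fl/fl replicate 2 the log2 fold change was -3.46.

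The promoters of Srebf1, Mlxipl and Thrsp, and of the enzyme genes Fasn and Elovl5, are shown because Srebf1 was higher while the other 4 genes were lower. Each is the RefSeq sequence (GRCm38.p6) of the 250 bases before a RefSeq start, 5′ to 3′ on the gene's strand, with matches to the searched motifs in capitals. Srebf1 has 3 such windows and Mlxipl has 2, and the one nearest the gene's start in the deposited table is shown. The RefSeq start of Thrsp lies inside the gene as the deposited table places it, so that 180 of the 250 bases of its window fall within the gene's span there.
Srebf1, chr11:60222582-60222831, minus strand: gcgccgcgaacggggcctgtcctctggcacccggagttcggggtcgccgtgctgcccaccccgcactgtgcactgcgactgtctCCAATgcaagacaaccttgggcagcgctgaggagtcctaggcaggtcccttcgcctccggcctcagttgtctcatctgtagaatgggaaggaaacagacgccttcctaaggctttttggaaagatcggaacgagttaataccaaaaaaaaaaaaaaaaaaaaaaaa
Mlxipl, chr5:135089640-135089889, plus strand: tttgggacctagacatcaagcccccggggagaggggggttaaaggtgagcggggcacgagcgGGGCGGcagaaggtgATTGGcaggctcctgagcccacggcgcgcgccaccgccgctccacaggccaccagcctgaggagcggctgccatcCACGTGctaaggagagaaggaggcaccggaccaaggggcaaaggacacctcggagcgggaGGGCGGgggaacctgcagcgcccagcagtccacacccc
Thrsp, chr7:97417551-97417800, minus strand: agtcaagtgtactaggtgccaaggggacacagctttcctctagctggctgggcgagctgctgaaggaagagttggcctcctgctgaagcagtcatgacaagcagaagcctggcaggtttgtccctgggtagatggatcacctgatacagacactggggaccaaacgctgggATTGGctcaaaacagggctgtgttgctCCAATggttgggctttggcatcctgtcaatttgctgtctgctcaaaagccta
Fasn, chr11:120824548-120824797, minus strand: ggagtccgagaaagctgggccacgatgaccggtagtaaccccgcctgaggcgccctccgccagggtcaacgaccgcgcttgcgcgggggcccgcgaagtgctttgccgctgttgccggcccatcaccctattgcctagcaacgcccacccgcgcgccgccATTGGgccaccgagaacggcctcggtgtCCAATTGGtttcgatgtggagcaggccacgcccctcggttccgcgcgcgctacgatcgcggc
Elovl5, chr9:77917115-77917364, plus strand: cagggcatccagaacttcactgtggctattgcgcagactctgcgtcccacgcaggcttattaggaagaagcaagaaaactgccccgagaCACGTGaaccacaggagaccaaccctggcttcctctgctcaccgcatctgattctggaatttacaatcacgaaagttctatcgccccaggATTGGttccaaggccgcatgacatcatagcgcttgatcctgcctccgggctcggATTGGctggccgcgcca
The motifs searched on both strands were the E-box CACGTG, the sterol regulatory element TCACNCCAC, the CCAAT box CCAAT and the GC box GGGCGG. In these windows the capitals are CCAAT boxes, written ATTGG where they lie on the other strand, E-boxes in Mlxipl and Elovl5, 98 and 161 bases before their starts, and GC boxes in Mlxipl, 188 and 38 bases before its start. A CCAAT box began 166 bases before the start in Srebf1, 173 bases in Mlxipl, 79 and 52 bases in Thrsp, 90, 62 and 59 bases in Fasn and 71 and 17 bases in Elovl5; the nearest pair in Fasn overlap on opposite strands. RefSeq windows were found for 30 of the 37 genes, 40 windows in all with alternative starts. The E-box was in 10% of the 40 windows (Elovl5, Hacd3, Lpin2 and Mlxipl) and in 6.02% of all 32851 RefSeq windows available. Those windows do not cover every gene and were not limited to genes tested in these livers. The sterol regulatory element was in 2.5% (the window of Mlxipl that is not shown) against 1.05%, the CCAAT box in 42.5% against 33.8%, and the GC box in 62.5% against 32.7%. A match is a match of letters in this window and no measure of binding.

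All 5 enzymes of lipogenesis were called lower, against 18.0% of all genes tested. Acacb (ENSMUSG00000042010, chr5:114146535-114250761, plus strand), the mitochondrial acetyl-CoA carboxylase whose malonyl-CoA restrains fatty acid oxidation, had 17.7, 23.2 and 13.6 CPM in Alb-Cre Prdx1 fl/fl livers and 58.0, 80.2 and 79.8 CPM in Prdx1 fl/fl livers. Its groups lay far apart (log2 fold change -2.0 ± 0.22 SE, adjusted p = 0.000452 by edgeR). Acaca (ENSMUSG00000020532, chr11:84129672-84401645, plus strand), the cytosolic carboxylase that feeds palmitate synthesis, had 104, 133 and 107 CPM in Alb-Cre Prdx1 fl/fl livers and 218, 316 and 169 CPM in Prdx1 fl/fl livers. It was about as far below as the median of its 8-gene group, at a log2 fold change of -1.03 ± 0.22 SE (adjusted p = 0.00853, edgeR) against a group median of -0.94. Acss2 (ENSMUSG00000027605), which makes cytosolic acetyl-CoA from acetate, had 30.8, 33.7 and 40.9 CPM in Alb-Cre Prdx1 fl/fl livers and 56.3, 65.4 and 56.7 CPM in Prdx1 fl/fl livers (log2 fold change -0.76 ± 0.13 SE, adjusted p = 0.00292 by edgeR). Acss2 overlaps Gss on the opposite strand, which holds 360% as many counts, and whether counting used strand is not given in the sources used here, so its value is uncertain.

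Fasn and Acly, given by library after their values were seen, varied most among the enzymes in the Prdx1 fl/fl livers. Fasn (ENSMUSG00000025153, chr11:120805846-120824547, minus strand), fatty acid synthase, had 108, 197 and 143 CPM in Alb-Cre Prdx1 fl/fl livers and 302, 782 and 228 CPM in Prdx1 fl/fl livers. Acly, which cleaves citrate to acetyl-CoA, had 135, 153 and 137 CPM in Alb-Cre Prdx1 fl/fl livers and 207, 376 and 178 CPM in Prdx1 fl/fl livers. Neither gene's groups overlapped in CPM, but Prdx1 fl/fl replicate 2 stood well above the other 2 Prdx1 fl/fl libraries in both. The log2 fold change of Fasn was -1.55 ± 0.46 SE (adjusted p = 0.0302, edgeR) and -0.83 without Prdx1 fl/fl replicate 2, and that of Acly was -0.84 ± 0.26 SE (adjusted p = 0.0367, edgeR).

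Prdx1 fl/fl replicate 2 was the highest Prdx1 fl/fl library in 7 of the 8 lipogenesis genes, in 7 of 16 genes of elongation and desaturation and in 2 of 13 of glycerolipid assembly. It stood at 4.71 times the mean of the other 2 Prdx1 fl/fl libraries for Thrsp, 2.95 times for Fasn, 1.96 times for Acly, 1.64 times for Acaca and 1.48 times for Mlxipl. For Acss2 and Acacb it stood at only 1.16 times and for Srebf1 at 1.01 times. The share of all genes tested with this library highest was not counted, so the pattern is not shown to be particular to lipogenesis. The calls of Mlxipl (adjusted p = 0.0715 and 0.0713) and Fasn (0.106 and 0.0859) were lost by edgeR without Alb-Cre Prdx1 fl/fl replicate 1 or 3, and that of Acly (0.111, 0.0775 and 0.0978) without any one of the 3 Alb-Cre Prdx1 fl/fl libraries. All 3 calls were also lost with library sizes alone, and on FPKM that of Acaca too.

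**Figure D1:**
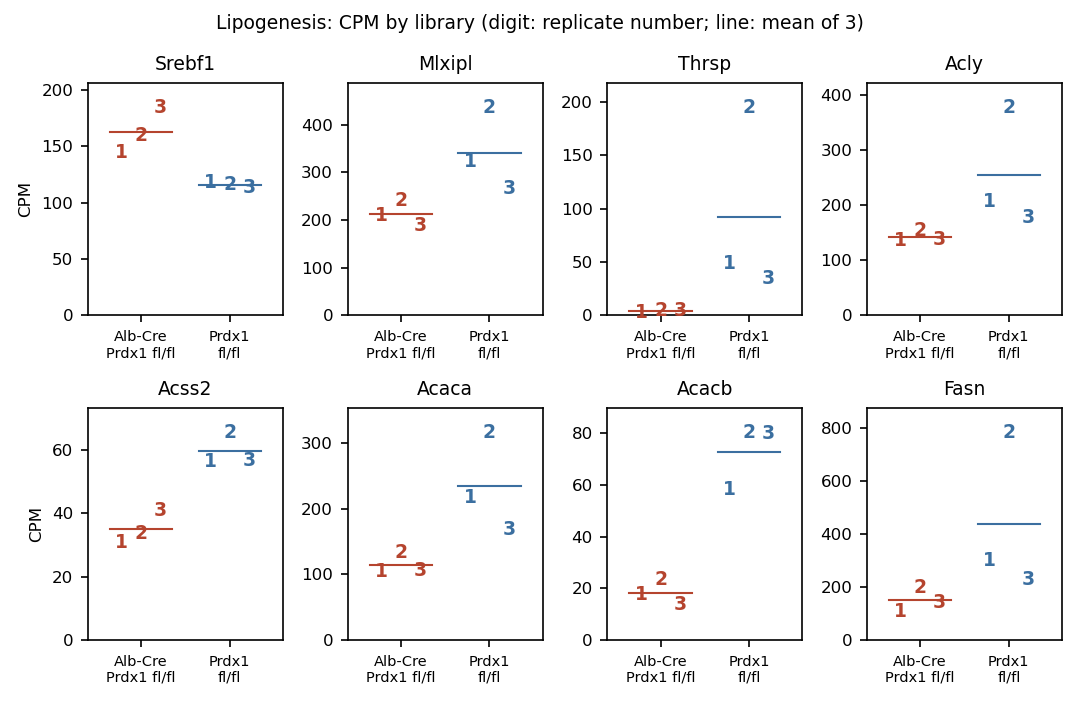
CPM (linear axis from 0) of the lipogenesis genes in each library, with Alb-Cre Prdx1 fl/fl left of Prdx1 fl/fl. Digits are replicate numbers and lines are means of 3; Prdx1 fl/fl replicate 2 is highest among the Prdx1 fl/fl libraries for every gene but Srebf1.

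Elongation and desaturation was the largest group. Of 16 genes 10 were lower, against 18.0% of all genes tested, and 6 were not called. The median log2 fold change of the group was -0.79. Among the desaturases Scd1 had the highest FPKM, a count scaled by gene length and depth, in each Alb-Cre Prdx1 fl/fl liver, and Fads2 in each Prdx1 fl/fl liver.

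Fads2 (ENSMUSG00000024665, chr19:10062765-10101746, minus strand), the delta-6 desaturase that opens the route from linoleic and alpha-linolenic acid to long polyunsaturated fatty acids, had 392, 348 and 396 CPM in Alb-Cre Prdx1 fl/fl livers and 1206, 1600 and 1555 CPM in Prdx1 fl/fl livers (log2 fold change -1.94 ± 0.13 SE, adjusted p = 6.2e-05 by edgeR). Fads1 (ENSMUSG00000010663, chr19:10182888-10196877, plus strand), the delta-5 desaturase of the same route, had 205, 207 and 235 CPM in Alb-Cre Prdx1 fl/fl livers and 589, 828 and 629 CPM in Prdx1 fl/fl livers (log2 fold change -1.66 ± 0.14 SE, adjusted p = 0.000166 by edgeR). The coefficient of variation in Alb-Cre Prdx1 fl/fl livers was 7.03% for Fads2 and 7.90% for Fads1. It was wider in Prdx1 fl/fl livers, at 14.8% for Fads2 and 18.8% for Fads1, but the groups were well separated. Fads3 lies 2.65 kb from Fads2 and had 31.9, 27.2 and 29.2 CPM in Alb-Cre Prdx1 fl/fl livers and 17.8, 30.8 and 39.7 CPM in Prdx1 fl/fl livers, with overlapping groups and no call. The FPKM of Fads2 was 14.1, 14.8 and 15.6 times that of Fads3 in Alb-Cre Prdx1 fl/fl livers and 78.1, 59.9 and 45.1 times in Prdx1 fl/fl livers. Fads6 had 152, 141 and 183 CPM in Alb-Cre Prdx1 fl/fl livers and 291, 260 and 239 CPM in Prdx1 fl/fl livers, and was called lower (log2 fold change -0.73 ± 0.12 SE, adjusted p = 0.00289 by edgeR).

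Scd1 and Scd2, the stearoyl-CoA desaturases that make monounsaturated fatty acids, went the other way in value without a call, and are given by library after their values were seen. Scd1 (ENSMUSG00000037071, chr19:44394455-44407709, minus strand) had 1749, 1774 and 3123 CPM in Alb-Cre Prdx1 fl/fl livers and 1211, 1332 and 452 CPM in Prdx1 fl/fl livers. Its groups did not overlap, but replicate 3 of each genotype stood off from the others in opposite directions. Its log2 fold change of 1.15 ± 0.40 SE missed the threshold in edgeR (adjusted p = 0.0579) and passed it in DESeq2 (adjusted p = 0.0497). Scd2 had 28.1, 29.2 and 28.8 CPM in Alb-Cre Prdx1 fl/fl livers and 27.7, 23.4 and 11.7 CPM in Prdx1 fl/fl livers (adjusted p = 0.237, edgeR). With library sizes alone both were called higher. Among the 6 desaturases Scd1 made up 64.4%, 66.5% and 75.3% of the summed FPKM in Alb-Cre Prdx1 fl/fl livers and 31.4%, 27.7% and 12.4% in Prdx1 fl/fl livers, while Fads2 made up 21.4%, 19.4% and 14.2% in Alb-Cre Prdx1 fl/fl livers and 46.4%, 49.5% and 63.5% in Prdx1 fl/fl livers.

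Elongases, which catalyse the first and rate-limiting step of each elongation round, differed among themselves. Elovl3 (ENSMUSG00000038754, chr19:46131897-46135694, plus strand), an elongase of saturated and monounsaturated very long chains, had 1.28, 1.63 and 0.614 CPM in Alb-Cre Prdx1 fl/fl livers, against 23.6, 19 and 16.6 CPM in Prdx1 fl/fl livers (log2 fold change -4.07 ± 0.36 SE, adjusted p = 0.00018 by edgeR). Elovl5 (ENSMUSG00000032349, chr9:77917364-77984519, plus strand), which lengthens polyunsaturated fatty acids between the steps of Fads2 and Fads1, had 180, 166 and 205 CPM in Alb-Cre Prdx1 fl/fl livers and 365, 386 and 400 CPM in Prdx1 fl/fl livers (log2 fold change -1.06 ± 0.10 SE, adjusted p = 0.000238 by edgeR). Both genes showed wide gaps between the genotypes compared with the spread inside each.

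Elovl2, Elovl6 and Elovl7 are given by library after their values were seen. Elovl2, which acts on the longest polyunsaturated fatty acids, had 213, 194 and 78.2 CPM in Alb-Cre Prdx1 fl/fl livers and 469, 395 and 531 CPM in Prdx1 fl/fl livers (log2 fold change -1.52 ± 0.34 SE, adjusted p = 0.00998 by edgeR). Elovl6, which turns palmitate into stearate, had 24.2, 40.2 and 37.2 CPM in Alb-Cre Prdx1 fl/fl livers and 99.7, 155 and 83.7 CPM in Prdx1 fl/fl livers (log2 fold change -1.73 ± 0.27 SE, adjusted p = 0.00203 by edgeR). Neither Elovl2 nor Elovl6 overlapped between genotypes. Elovl7 had 16.2, 13.3 and 13.8 CPM in Alb-Cre Prdx1 fl/fl livers and 4.76, 8.09 and 11.3 CPM in Prdx1 fl/fl livers. Its log2 fold change of 0.84 ± 0.29 SE missed the threshold (adjusted p = 0.0528 by edgeR, and 0.0144 without Prdx1 fl/fl replicate 3). DESeq2, library sizes alone and FPKM with limma were among the settings that called Elovl7 higher, while 8 of the 16 alternatives did not call it. Elovl1 had 39.3 to 68.9 CPM in Alb-Cre Prdx1 fl/fl livers and 75.8 to 93.2 CPM in Prdx1 fl/fl livers and was not called either (adjusted p = 0.0755, edgeR).

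Of the 4 enzymes that complete each elongation round Hsd17b12, Hacd2 and Hacd3 were called lower and Tecr was not. Hsd17b12 (ENSMUSG00000027195, chr2:94032689-94157964, minus strand), the 3-ketoacyl-CoA reductase, had 92.1, 95.6 and 88.7 CPM in Alb-Cre Prdx1 fl/fl livers and 156, 159 and 151 CPM in Prdx1 fl/fl livers (log2 fold change -0.75 ± 0.08 SE, adjusted p = 0.00033 by edgeR). Hacd2 (ENSMUSG00000035376, chr16:35022428-35109177, plus strand), a 3-hydroxyacyl-CoA dehydratase, had 53.2, 59.1 and 60.9 CPM in Alb-Cre Prdx1 fl/fl livers and 105, 106 and 100 CPM in Prdx1 fl/fl livers (log2 fold change -0.85 ± 0.09 SE, adjusted p = 0.000353 by edgeR). Its relative Hacd3 spread more, with 111 to 145 CPM in Alb-Cre Prdx1 fl/fl livers and 186 to 278 CPM in Prdx1 fl/fl livers (log2 fold change -0.82 ± 0.17 SE, adjusted p = 0.00708 by edgeR), and was not called with library sizes alone. The last enzyme of the round, Tecr, had 91.7 to 93.1 CPM in Alb-Cre Prdx1 fl/fl livers and 97.5 to 113 CPM in Prdx1 fl/fl livers and was not called, and its log2 fold change of -0.18 became 0.19 with library sizes alone.

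**Figure D2:**
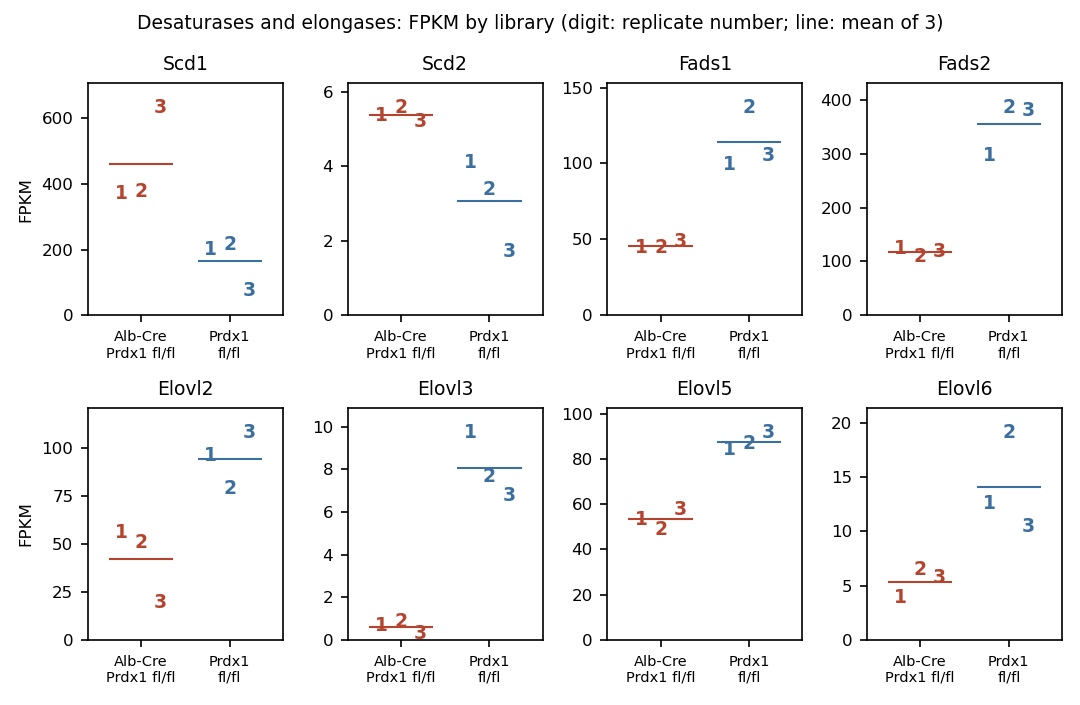
FPKM (linear axis from 0) of desaturases and elongases in each library, with Alb-Cre Prdx1 fl/fl left of Prdx1 fl/fl. Digits are replicate numbers and lines are means of 3. Fads2 and Fads1 are lower in every Alb-Cre library. Scd1 has 632 FPKM in Alb-Cre Prdx1 fl/fl replicate 3 and 74.6 FPKM in Prdx1 fl/fl replicate 3.

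In glycerolipid assembly 8 of the 12 tested genes were lower, against 18.0% of all genes tested, and 4 were not called. Their median log2 fold change was -0.71. With library sizes alone 3 of the 12, Lpin1, Lpin2 and Dgat2, were called lower, against 1249 of all 18931 genes tested. The genes of this group called lower were 1.47 to 2.70 times higher in Prdx1 fl/fl livers, compared with 1.66 to 16.8 times for elongation and desaturation and 1.6 to 24.7 times for lipogenesis.

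Dgat2 (ENSMUSG00000030747, chr7:99153658-99182719, minus strand), which adds the last acyl chain of triglyceride and is linked to newly made fatty acids, had 309, 254 and 277 CPM in Alb-Cre Prdx1 fl/fl livers and 768, 748 and 658 CPM in Prdx1 fl/fl livers (log2 fold change -1.37 ± 0.11 SE, adjusted p = 0.000106 by edgeR). Dgat1, a structurally unrelated enzyme for the same step, had 17.2, 17.2 and 21.2 CPM in Alb-Cre Prdx1 fl/fl livers and 20.3, 29.1 and 27.9 CPM in Prdx1 fl/fl livers, with overlapping groups and no call (log2 fold change -0.48 ± 0.17 SE, adjusted p = 0.0557 by edgeR, and 0.0175 without Prdx1 fl/fl replicate 1). DESeq2 and counts divided by 4 also called Dgat1 lower, while 13 of the 16 alternatives did not call it. The FPKM of Dgat2 was 17.8, 14.7 and 13.0 times that of Dgat1 in Alb-Cre Prdx1 fl/fl livers and 37.8, 25.5 and 23.4 times in Prdx1 fl/fl livers.

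The lipins dephosphorylate phosphatidic acid to diacylglycerol. Lpin1 (ENSMUSG00000020593, chr12:16535669-16646966, minus strand) had 135, 231 and 115 CPM in Alb-Cre Prdx1 fl/fl livers and 335, 437 and 528 CPM in Prdx1 fl/fl livers (log2 fold change -1.43 ± 0.28 SE, adjusted p = 0.00532 by edgeR). Lpin2 (ENSMUSG00000024052, chr17:71182560-71249817, plus strand) had 227, 247 and 258 CPM in Alb-Cre Prdx1 fl/fl livers and 424, 396 and 583 CPM in Prdx1 fl/fl livers (log2 fold change -0.94 ± 0.15 SE, adjusted p = 0.00234 by edgeR). Lpin2 was the steadier of the pair among Alb-Cre Prdx1 fl/fl libraries. Lpin3 was low in both genotypes, 9.71 to 12.7 CPM in Alb-Cre Prdx1 fl/fl livers and 12.5 to 19.9 CPM in Prdx1 fl/fl livers, and although called lower (adjusted p = 0.0412, edgeR) its groups overlapped.

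The acyltransferases of the first steps add acyl chains to glycerol 3-phosphate and lysophosphatidic acid. Agpat3 had 290, 263 and 260 CPM in Alb-Cre Prdx1 fl/fl livers and 373, 395 and 442 CPM in Prdx1 fl/fl livers (log2 fold change -0.57 ± 0.09 SE, adjusted p = 0.00257 by edgeR). Gpat4, a glycerol 3-phosphate acyltransferase of the endoplasmic reticulum, had 111, 112 and 142 CPM in Alb-Cre Prdx1 fl/fl livers and 184, 164 and 191 CPM in Prdx1 fl/fl livers (log2 fold change -0.56 ± 0.12 SE, adjusted p = 0.00855 by edgeR). Gpam, its mitochondrial counterpart, had 95.8, 162 and 158 CPM in Alb-Cre Prdx1 fl/fl livers and 206, 217 and 305 CPM in Prdx1 fl/fl livers (log2 fold change -0.81 ± 0.23 SE, adjusted p = 0.0267 by edgeR). None of these 3 overlapped between genotypes in CPM, but all lost their call with library sizes alone. Gpat3 was called lower with 18.7 to 46.5 CPM in Alb-Cre Prdx1 fl/fl livers and 56.2 to 78.1 CPM in Prdx1 fl/fl livers (log2 fold change -1.05 ± 0.30 SE, adjusted p = 0.0274 by edgeR), and lost its call with library sizes alone too.

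Of the remaining genes of this group, the phosphatidic acid-forming Agpat2 had 74.8 to 135 CPM in Alb-Cre Prdx1 fl/fl livers and 142 to 253 CPM in Prdx1 fl/fl livers and missed the threshold (adjusted p = 0.0524, edgeR; 0.028 without Prdx1 fl/fl replicate 2). DESeq2 and RLE factors were among the settings that called Agpat2 lower, while 10 of the 16 alternatives did not call it. Agpat1 had 12.9 to 23.6 CPM in Alb-Cre Prdx1 fl/fl livers, a range that enclosed the 17.1 to 18.9 CPM of Prdx1 fl/fl livers. Pnpla3, a lipid droplet protein, was under 1 CPM in every library and overlaps a gene on the opposite strand that holds 70% as many counts, so no direction is given. Mogat1, of the monoacylglycerol route, had 0, 8 and 0 deposited counts in Alb-Cre Prdx1 fl/fl livers and 4, 8 and 33 in Prdx1 fl/fl livers and was too low to test. Leaving out single libraries removed the calls of Gpat3 (adjusted p = 0.0877, 0.0891 and 0.0595 by edgeR without Alb-Cre Prdx1 fl/fl replicate 2, Prdx1 fl/fl replicate 1 or Prdx1 fl/fl replicate 2) and Gpam (0.0531 and 0.0819 without Alb-Cre Prdx1 fl/fl replicate 1 or Prdx1 fl/fl replicate 3). The call of Lpin3 was lost without any one library except Alb-Cre Prdx1 fl/fl replicate 1 and Prdx1 fl/fl replicate 1.

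**Figure D3:**
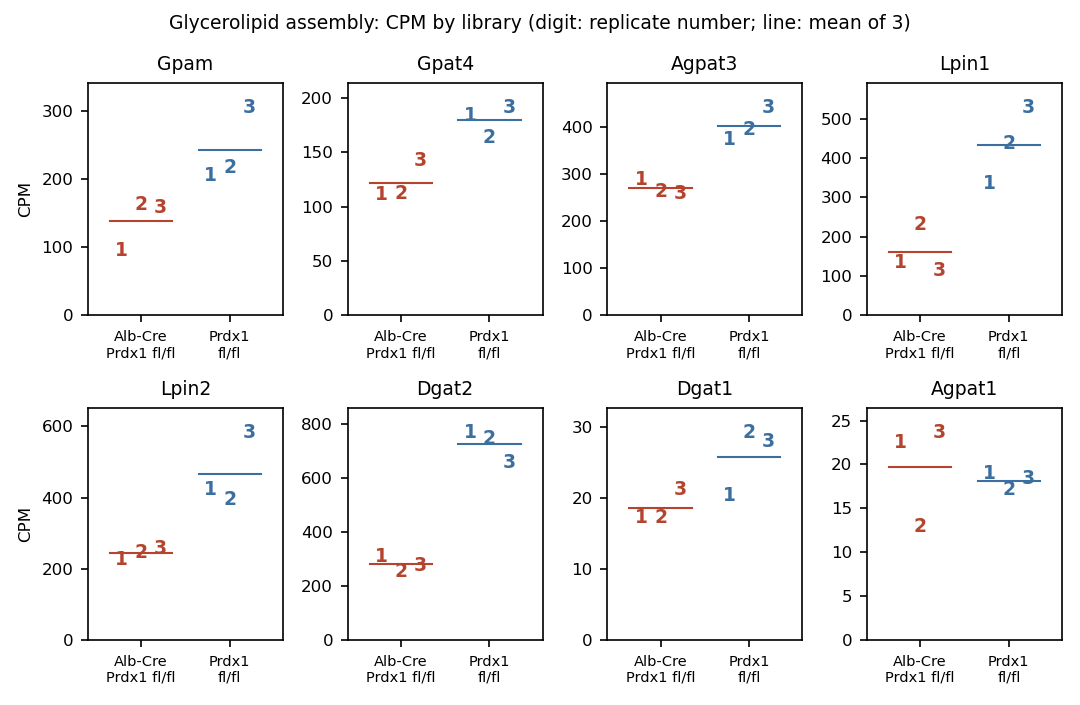
CPM (linear axis from 0) of 8 glycerolipid genes in each library, with Alb-Cre Prdx1 fl/fl left of Prdx1 fl/fl; digits are replicate numbers and lines are means of 3. Dgat2 reaches 309 CPM at most in the Alb-Cre livers against 658 CPM at least in Prdx1 fl/fl livers, while Dgat1 and Agpat1 overlap.

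Levels compared per length placed the same few genes at the top of both genotypes in another order. In Alb-Cre Prdx1 fl/fl livers Scd1 led with 461 ± 148 FPKM, before Fads2 with 118 ± 6.98 and Dgat2 with 93.0 ± 10.04 (SD, n = 3). In Prdx1 fl/fl livers Fads2 led with 355 ± 49.5 FPKM, before Dgat2 with 189 ± 15.4, Scd1 with 164 ± 77.8 and Fads1 with 114 ± 19.9 (SD, n = 3). The Prdx1 fl/fl libraries of Scd1, at 201, 216 and 74.6 FPKM, spread across the means of both Dgat2 and Fads1. The coefficient of variation within genotype had a median of 14.4% in Alb-Cre Prdx1 fl/fl and 28.6% in Prdx1 fl/fl livers for lipogenesis. It was 10.9% in Alb-Cre Prdx1 fl/fl and 16.4% in Prdx1 fl/fl livers for elongation and desaturation, and 26.8% in Alb-Cre Prdx1 fl/fl and 21.6% in Prdx1 fl/fl livers for glycerolipid assembly.

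Ratios of 12 pairs of related genes, taken on log2(FPKM + 0.5) within a library, asked which partners moved unequally. For 7 pairs the genotypes did not overlap. In FPKM 55.3% of all single genes tested did not overlap either, and no share was taken over ratios of other pairs. Each of the 7 had the smallest two-sided p that an exact permutation test of 3 against 3 libraries allows (p = 0.1, adjusted p = 0.171 over the 12 pairs), so none can pass a threshold of 0.05. The pairs were chosen with earlier results of these data known, so their number shows no excess of unequal partners. The mean log2 ratio was lower in Alb-Cre Prdx1 fl/fl livers by 2.74 for Elovl3 over Elovl1, by 1.97 for Fads2 over Fads3, by 1.13 for Mlxipl over Srebf1, by 0.91 for Dgat2 over Dgat1 and by 0.83 for Acacb over Acaca. It was higher by 0.80 for Scd1 over Scd2 and, with groups that nearly touch, by 0.29 for Fads1 over Fads2. Overlapping were Elovl6 over Elovl5, Lpin1 over Lpin2, Gpam over Gpat4, Agpat2 over Agpat3 and Acss2 over Acly, with differences between -0.58 and 0.04.

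**Figure D4:**
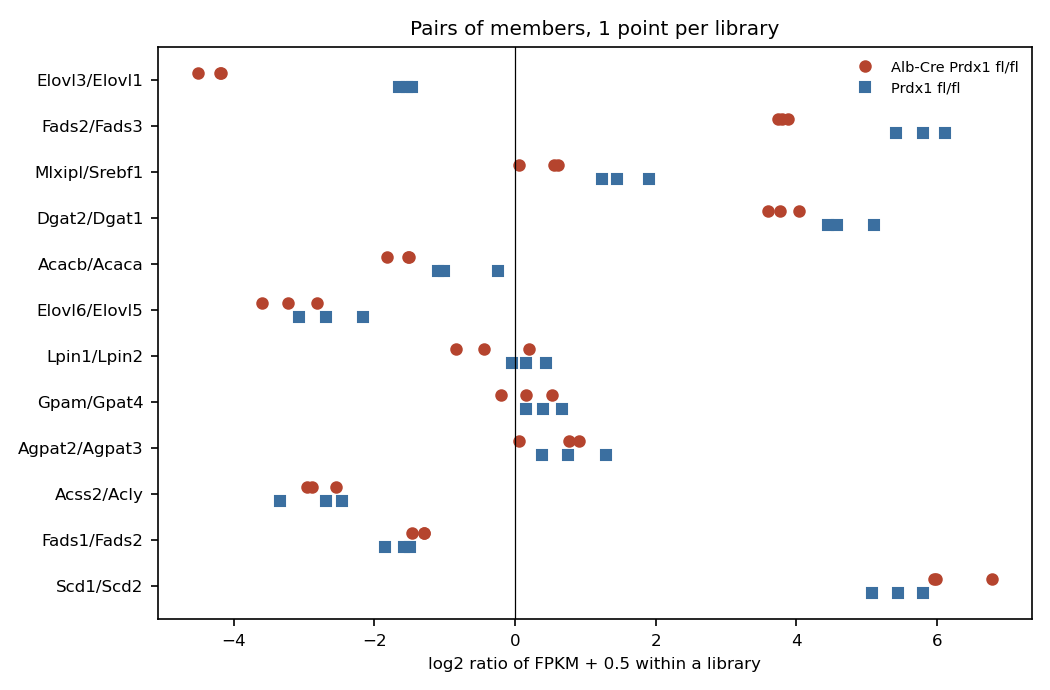
Log2 ratio of FPKM + 0.5 of 2 related genes within each library, for 12 pairs, with Alb-Cre Prdx1 fl/fl (circles) above Prdx1 fl/fl (squares). Each point is a library; Elovl3 over Elovl1 and Fads2 over Fads3 show the widest gaps, at -2.74 and -1.97.

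Most genes of precursor supply were lower too. Of 14 tested genes for glucose use, citrate export, NADPH and glycerol phosphate 10 were lower and 1 was higher, with a median log2 fold change of -0.84. Of all genes tested 18.0% were called lower and 19.9% higher. Gpd1, which makes glycerol 3-phosphate, had 260, 296 and 294 CPM in Alb-Cre Prdx1 fl/fl livers and 765, 829 and 688 CPM in Prdx1 fl/fl livers (log2 fold change -1.43 ± 0.10 SE, adjusted p = 8e-05 by edgeR). It was lower in every Alb-Cre library. NADPH sources split: malic enzyme Me1 had a log2 fold change of -1.62 ± 0.17 SE (adjusted p = 0.000412, edgeR), whereas G6pdx, glucose 6-phosphate dehydrogenase, was the 1 higher gene at 0.81 ± 0.09 SE (adjusted p = 0.000553, edgeR). With library sizes alone 8 were called lower and 1 higher, against 1249 lower and 6459 higher of all 18931 genes tested.

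Among 25 regulators and genes of SREBP processing 13 were lower and 1 was higher, against 18.0% lower and 19.9% higher of all genes tested. The median of the list was -0.39. The smallest p-values belonged to Akt2, the insulin-signalling kinase (log2 fold change -0.66 ± 0.08 SE), Hnf4a, a hepatocyte factor also on the marker list (-0.80 ± 0.10 SE), Mlx, the partner of ChREBP (-0.85 ± 0.10 SE), and Nr1h3, the liver X receptor alpha (-0.70 ± 0.09 SE). Usf1, an E-box factor, was the 1 higher gene at 0.33 ± 0.11 SE, a call lost with RLE factors. The counts and median of this list depended on the scaling, with 6 lower, 8 higher and a median of -0.03 by library sizes alone. Of all 18931 genes tested 1249 were lower and 6459 higher in that setting. The median of the list lay 0.44 below that of all genes tested by either scaling.

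Further enzymes of the same families were divided. Of 17 tested 6 were lower and 5 higher, against 18.0% lower and 19.9% higher of all genes tested. The median log2 fold change was -0.25 (0.12 with library sizes alone), and Elovl4 was at 0 in all 6 libraries. The 5 and the medians include Scd3 and Scd4, whose direction was fixed by the filter on low counts, so these genes are no part of the division. Lower were, among others, Cyb5b (-1.07 ± 0.08 SE), an outer mitochondrial membrane cytochrome b5, Acss3 (-1.54 ± 0.14 SE) and the lysophospholipid acyltransferase Lclat1 (-0.67 ± 0.09 SE). Higher were Hacd4 (1.70 ± 0.19 SE), Acss1 (1.75 ± 0.29 SE), Gpat2 (0.74 ± 0.24 SE), Scd3 and Scd4. Scd3 had 41, 206 and 147 deposited counts in Alb-Cre Prdx1 fl/fl livers and 0 in each Prdx1 fl/fl liver, at least 23.4-fold higher against a floor of 12 counts over the Prdx1 fl/fl group. Scd4 had 30, 22 and 58 counts against 0 in each Prdx1 fl/fl liver, at least 6.52-fold higher. Both passed the filter on low counts only through the Alb-Cre Prdx1 fl/fl livers, so they could only come out higher. Scd3 and Scd4 lie in the chromosome 19 cluster of Scd1 and Scd2 and resemble them closely, so reads may be divided among the copies and both values are uncertain.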

How the data were processed

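The deposited table gives, for each gene and library, a count and an FPKM value made by the authors. StringTie 1.3.4d, HISAT2 2.0.4, cutadapt 1.9, edgeR, DESeq2 and UMI-tools are named in the submitters' processing notes without roles. The deposited counts are estimated counts: they are whole numbers, but low values pile up at multiples of 4 (854 genes at 4, 280 at 3 and 167 at 5 in Prdx1 fl/fl replicate 1), so they were not taken as independent reads and no counting intervals are given. The notes list the build mm9, but 51920 of 55141 identifiers (94.2%) have the positions of GRCm38 in GENCODE M21, among them 29 of the 37 genes, so positions are given as the file has them, in GRCm38. Columns named wt were taken as Prdx1 fl/fl, the only genotype without Cre. Nothing says more of the 3 samples per genotype than that they came from 3 mice.

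The main test was that of edgeR 4.0.16 in R 4.3.3 (filterByExpr at count 10 and total 15, TMM factors, genotype as the only term, two-sided quasi-likelihood test, Benjamini-Hochberg over 18931 genes, threshold 0.05). Standard errors came from the F statistic. The design had named this test for a table with counts. FPKM served for levels between genes, ratios and limma 3.58.1 on log2(FPKM + 0.5), where a fold change understates that of low genes. Ratios were tested by exact two-sided permutation (scipy 1.17.1). Scripts were tested on simulated data. The 37 genes, the pathway and marker lists and the pairs were chosen with earlier results of these data known, and marker and pathway lists are described by counts and medians. Library values are given for the 6 genes per group with the smallest p, the regulators and genes called higher. From each pathway list the 4 smallest p and calls against its majority are given, most of them by log2 fold change alone. Other genes were added after their values were seen. A gene that this rule names is not reported here. Where a symbol had several entries (134 repeats) the one with the highest mean count was used. Alternatives were DESeq2 1.42.0, RLE factors, library sizes alone, other count filters, other pseudocounts, counts divided by 4, a 2-fold limit, a replicate block and leaving out each library.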

Additional observations from a re-analysis of the deposited data

How the results depend on the processing

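Of the 26 called genes 16 kept their call and direction under all 16 alternatives that give a fold change: Srebf1, Thrsp, Acss2, Acacb, Elovl2, Elovl3, Elovl5, Elovl6, Hsd17b12, Hacd2, Fads1, Fads2, Fads6, Lpin1, Lpin2 and Dgat2. Over all genes, 6459 were higher and 1249 lower with library sizes alone, 6671 and 1364 with limma on log2(FPKM + 0.5), 6650 and 1364 with a pseudocount of 1, 6667 and 1362 with 0.1, and 2329 and 725 with the 2-fold limit. Of the 37 genes, 4 were higher with library sizes alone and with pseudocounts 0.5 and 1, 3 with pseudocount 0.1, DESeq2 and counts divided by 4, 2 with a minimum count of 50, and 0 with the 2-fold limit; DESeq2 found 28 lower. Lower were 16 with library sizes alone, 15 on FPKM with each pseudocount and 13 with the 2-fold limit. In lipogenesis 4 were lower with library sizes alone, 3 on FPKM with each pseudocount and 4 with the 2-fold limit; in elongation and desaturation 6 with the 2-fold limit; in glycerolipid assembly 3 under library sizes alone, FPKM and the 2-fold limit. The cause of these shifts was not tested. Without 1 library the higher count was 1 to 2, the lower count 21 to 25 and the lower count in lipogenesis 4 to 7.

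Values without a call changed sign. Tecr became 0.19 with library sizes alone and 0.17, 0.16 and 0.17 on FPKM. Fads3 became 0.37 with library sizes alone, 0.39, 0.36 and 0.41 on FPKM, 0.024 with no filter, 0.012 with a minimum count of 50, 0.0055 with counts divided by 4, 0.067 with the replicate block, and -0.26 to 0.28 without 1 library. Without 1 library Agpat1 ran between -0.029 and 0.35, and the log2 ratio difference between -0.45 and 0.022 for Agpat2 over Agpat3 and between -0.22 and 0.22 for Acss2 over Acly. Without a filter the calls of Acly (adjusted p = 0.0505, edgeR) and Lpin3 (0.0634) were lost.

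Replicate numbers are shared by the genotypes but nothing says that they pair mice. Same-numbered libraries deviated together with r = 0.0157, 0.0309 and 0.0353 across genes, under the 0.1 required, though each library correlated best with its own number. With the replicate block 26 of the 37 genes were lower and 1 higher, Lpin3 was lost (adjusted p = 0.0977, edgeR) and Elovl1 (0.0308) and Agpat2 (0.0033) were gained; over all genes 3269 were higher and 3207 lower.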

Other observations

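Genes outside the 37, picked after their values were seen, repeated the position of Prdx1 fl/fl replicate 2 in part. Pklr, the liver pyruvate kinase and a textbook ChREBP target, had 132, 196 and 145 CPM in Alb-Cre Prdx1 fl/fl livers and 537, 965 and 472 CPM in Prdx1 fl/fl livers. Insig1, a sterol-regulated inhibitor of SREBP processing, had 59.9, 73.4 and 54.0 CPM in Alb-Cre Prdx1 fl/fl livers and 75.6, 179 and 142 CPM in Prdx1 fl/fl livers. Prdx1 fl/fl replicate 2 was the highest library for both, and Alb-Cre Prdx1 fl/fl replicate 2 was the highest of its genotype for both.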
